A study of Sus scrofa with 12 samples.

Results

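The 61 genes described here encode proteins of the mitochondrial ribosome and were measured by RNA sequencing in cultured smooth muscle cells of pig (Sus scrofa) coronary artery. They are the rows of the deposited count table whose pig Ensembl symbol begins with MRPL or MRPS and a digit and that had at least 10 counts in at least 3 of the 12 libraries. The table held 63 such symbols among 21153 genes, and the 2 that were left out, MRPL43 and MRPL54, had 0 counts in every library. All 61 passed the filter on low counts and were among the 12444 genes tested. The gene nearest to the count minimum, MRPL24, reached 10 counts in 11 of the 12 libraries. It had 9 to 28 counts and the lowest mean level of all, 0.704 CPM. By their known place in the particle, 40 belong to the large subunit (24 with a bacterial counterpart and 16 that are specific to mitochondria) and 21 to the small subunit (11 and 10 of the same kinds). MRPS18A and MRPS30 count among the large-subunit proteins despite their symbols.

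Cells were treated for 4 h with PDGF-BB at 30 ng/ml and S100A4 at 1 µg/ml together (the joint treatment), with PDGF-BB alone, with S100A4 alone, or with neither (control), and each group had 3 libraries. PDGF-BB is a platelet-derived growth factor dimer and a mitogen of smooth muscle cells, and S100A4 is a small EF-hand protein that binds calcium and can be secreted (written oS100A4 in the design text, a form the labels do not explain). The cells are primary cultures of passages 6 to 11, with the labelled phenotype differentiated/contractile, kept in medium with 10% fetal calf serum before treatment, also in the control. The design text speaks of 3 animals without tying a library to one, so a p-value covers only how far these libraries spread.

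The mitochondrial ribosome, or mitoribosome, sits in the mitochondrial matrix and translates the messengers of the mitochondrial genome, which encode core subunits of the respiratory chain and ATP synthase. Its RNAs are made inside the organelle, but its proteins are encoded in the nucleus, made on cytosolic ribosomes and imported. Growing cells are known to make more of both the cytosolic and the mitochondrial ribosome.

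Total counts per library ranged from 21455021 to 32448438. Levels are given as CPM, the count of a gene relative to its library total, scaled between libraries by TMM and not by gene length, so that they compare 1 gene between libraries and not genes with each other. Contractile markers ranged from ACTA2, smooth muscle actin, at 6554 to 17454 CPM down to MYOCD at 2.82 to 7.45 CPM. Of the macrophage and leukocyte markers PTPRC and CD3E had 0 counts, and CD14 had 5.48 to 9.58 CPM. CD68, CSF1R, ITGAM and AIF1 had at most 32, 36, 12 and 10 counts in a library. These macrophage and leukocyte markers summed to 7.51 to 11.9 CPM. The 4 replicate 2 libraries stood apart: their 8 contractile markers summed to 9740 to 11592 CPM, against 20726 to 25662 CPM in the other 8 libraries. Their fibroblast markers summed to 942 to 1091 CPM, against 267 to 473 CPM in the other 8. Their proliferation markers summed to 374 to 447 CPM, against 240 to 323 CPM in replicate 1 and 72.8 to 103 CPM in replicate 3. Same-numbered libraries of different groups deviated together, so values of a fit that takes the replicate number as a block are printed where a call changes. Tests are edgeR's quasi-likelihood tests (two-sided, n = 3 libraries per group, Benjamini-Hochberg adjustment over the 12444 genes, threshold 0.05), and "rose" and "fell" are used of genes that passed it.

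PDGF-BB raised the transcripts of part of the mitoribosome, by modest folds. With PDGF-BB alone 11 of the 61 genes rose against control, by 1.21-fold to 1.52-fold, and 0 fell. Of all genes tested 9.09% rose and 5.62% fell, and 18.0% of the mitoribosomal protein genes rose. The median log2 change of the 61 genes was 0.17, against −0.02 over all genes, and 51 of the 61 changes were above 0 (47.7% of all genes). In all 3 same-numbered pairs 38 of the 61 were higher (62.3%, against 33.6% of all genes), and the libraries of 19 lay wholly above the controls (16.3% of all genes). With the replicate block 31 rose and 1 fell, where 24.3% of all genes rose and 24.5% fell. Of all genes called without the block 61.8% were higher, and with upper-quartile scaling 49.0% were. With that scaling 9 of the 61 rose, and 7.51% of all genes.

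**Figure D1:**
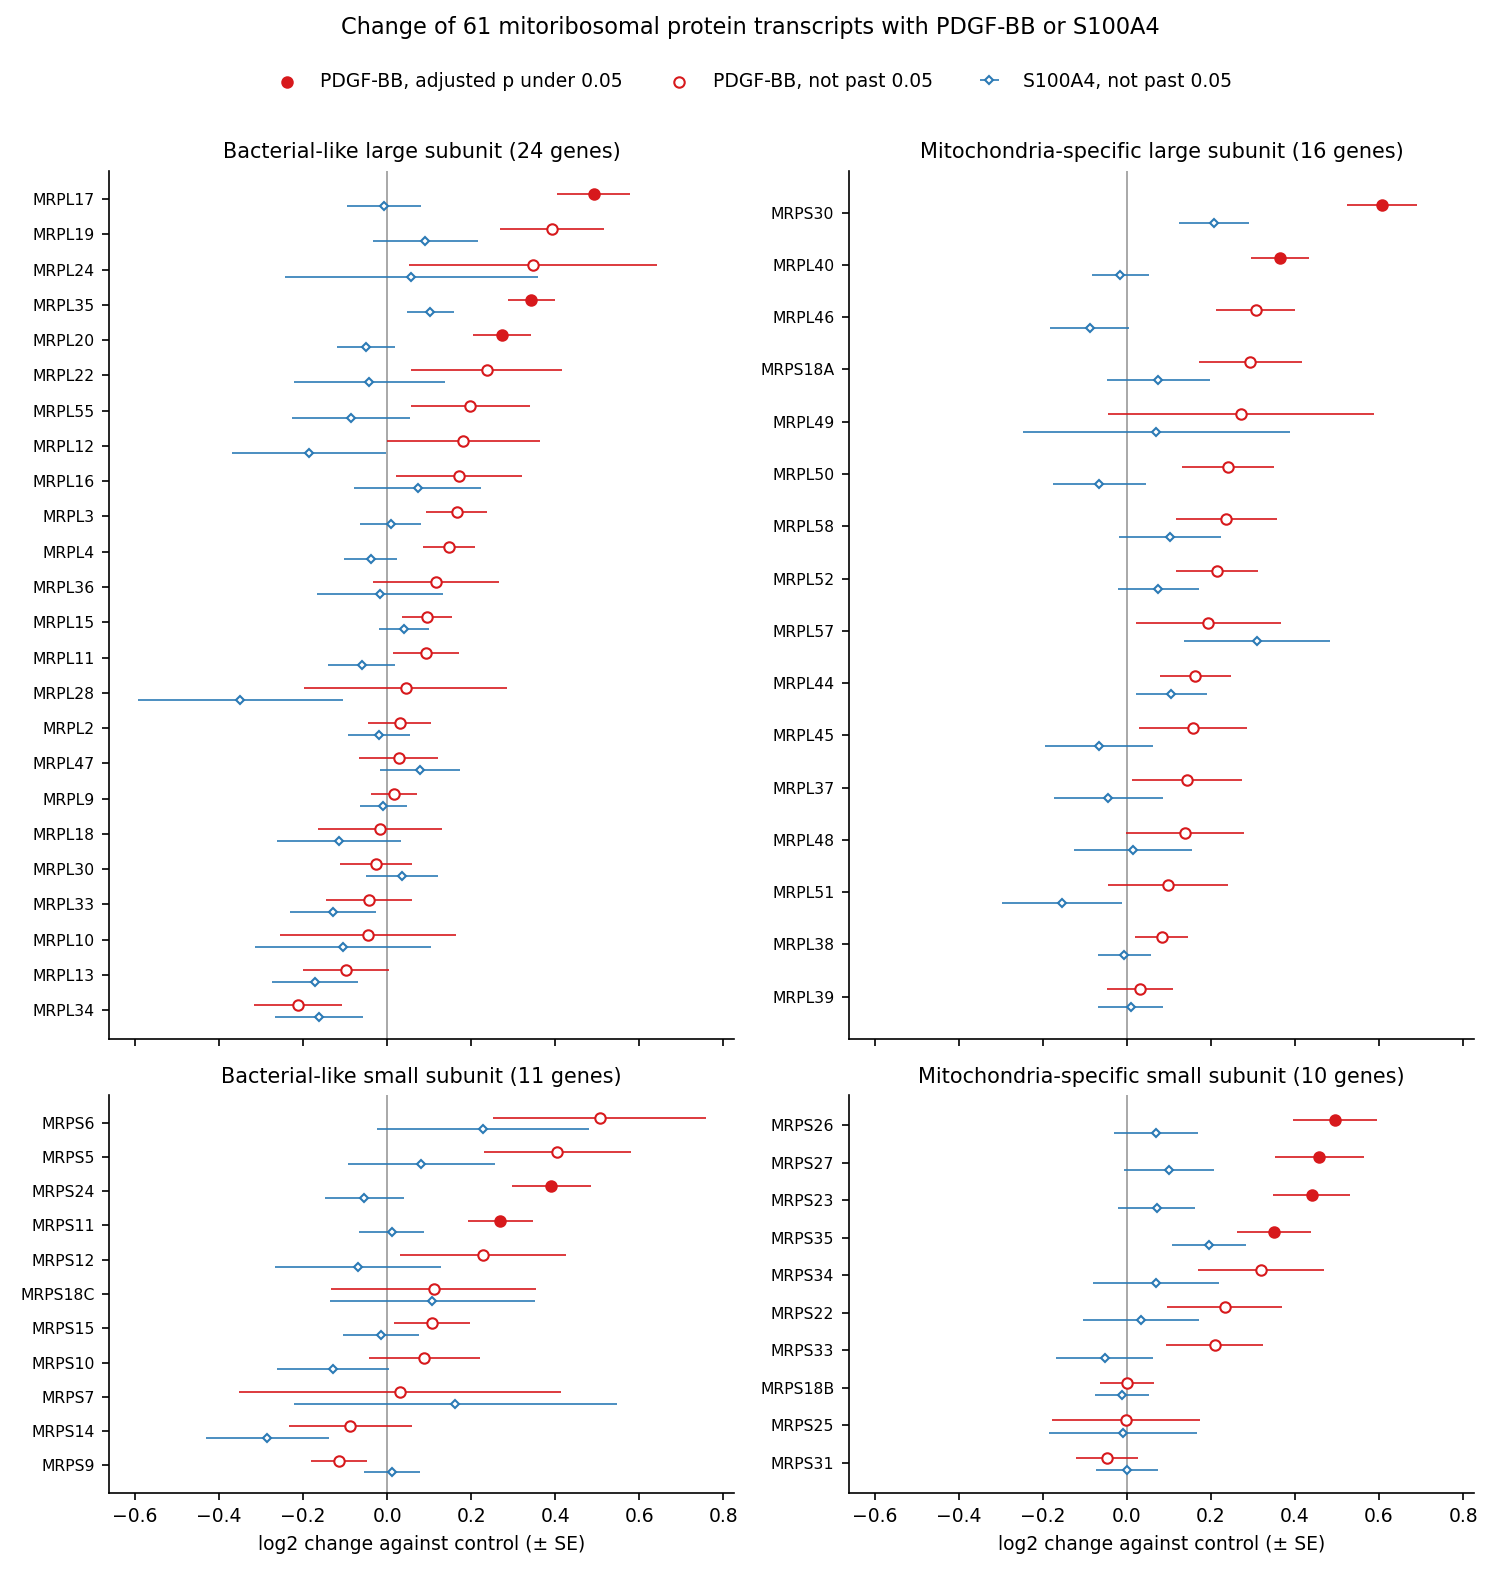
Log2 change against control of each of the 61 genes (points, with bars of 1 SE) for PDGF-BB (red circles, filled where the adjusted p is under 0.05) and S100A4 (blue diamonds), in 4 panels by subunit and origin, n = 3 libraries per group. Most red points lie right of 0, up to 0.61 for MRPS30, while the blue points lie around 0.

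The summed level of the 61 genes shows the same step in each replicate number. Together they took 0.152%, 0.174% and 0.152% of all counts in joint-treatment libraries 1 to 3, and 0.151%, 0.177% and 0.150% in PDGF-BB libraries. The shares were 0.137%, 0.160% and 0.135% in S100A4 libraries and 0.139%, 0.158% and 0.135% in control libraries. Replicate 2 was the highest library of every group, so that the ranges of treated and control shares overlap, yet within each number both groups with PDGF-BB were above the other groups. The shares lay 8.46%, 11.6% and 11.2% above the same-numbered control with PDGF-BB and 8.998%, 9.54% and 13.3% with the joint treatment. With S100A4 these values were −1.74%, 0.957% and 0.657%. TMM factors were 0.965, 1.037 and 0.956 with PDGF-BB, 0.928, 1.018 and 0.944 with the joint treatment and 1.021, 1.065 and 0.989 in controls. These lower factors enlarge the step on the scaled values. After TMM scaling the sum lay 14.8%, 14.6% and 15.0% above the same-numbered control with PDGF-BB. It lay 19.9%, 14.5% and 18.6% above with the joint treatment, against −0.748%, 0.185% and −0.847% with S100A4. On that scale the libraries with PDGF-BB no longer overlapped those without it: the lowest of the 6 summed to 1565 CPM, and the highest of the 6 without PDGF-BB to 1491 CPM. A library pools the RNA of a dish, so that a change in the share of a kind of cell and a change in RNA per cell cannot be told apart.

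**Figure D2:**
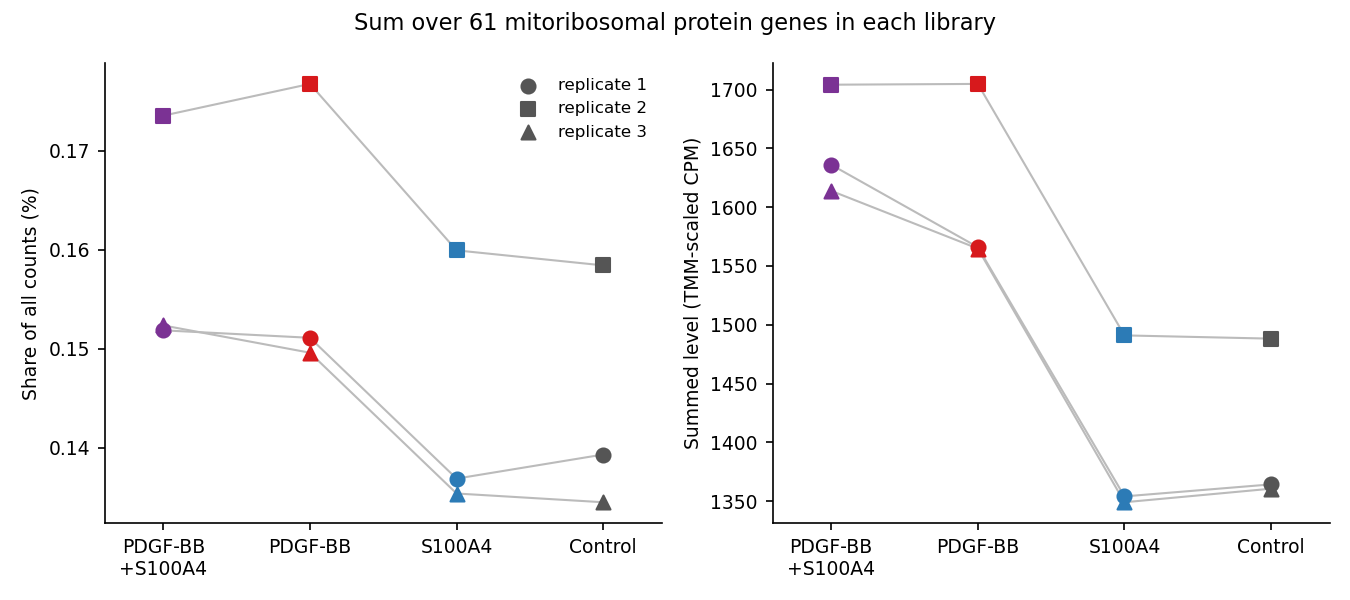
Sum over the 61 genes in each library, as a share of all counts (left, %) and as TMM-scaled CPM (right), by group. Grey lines join libraries of the same replicate number; in each number the step up lies between the groups without and with PDGF-BB and the vertical axes do not start at 0.

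In the large subunit, 5 of 40 genes rose with PDGF-BB, 12.5% of either class, where 9.09% of all genes rose. With the replicate block 10 of the 24 bacterial-type and 9 of the 16 mitochondria-specific ones rose, where 24.3% of all genes rose. MRPS30, a mitochondria-specific protein at the periphery of the large subunit (mL65 in the current nomenclature), showed the largest called change of the 61. MRPS30 (chromosome 16, 29110736 to 29200865 in Sscrofa11.1, RefSeq) had 23.7, 25.6 and 22.3 CPM in PDGF-BB libraries 1 to 3, against 15.3, 16.9 and 14.8 CPM in control libraries. The 3 treated libraries all lay above the 3 controls, a log2 change of 0.61 ± 0.08 (adjusted p = 0.00122). MRPL17, a bacterial-type protein beside the exit of the nascent chain and the gene with the highest CPM of the 61, had 112, 117 and 119 CPM with PDGF-BB and 76.3, 88.6 and 82.6 CPM in controls. These groups did not overlap either, and the log2 change was 0.49 ± 0.09 (adjusted p = 0.00466).

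MRPL40, a protein of the central protuberance on top of the large subunit, had 60.4, 66.0 and 56.3 CPM with PDGF-BB and 47.8, 48.6 and 45.5 CPM in controls (log2 change 0.36 ± 0.07, adjusted p = 0.00595). MRPL35, the counterpart of bacterial L35, had 34.1, 35.9 and 37.3 CPM with PDGF-BB and 27.5, 28.9 and 28.2 CPM in controls (log2 change 0.34 ± 0.06, adjusted p = 0.00276). MRPL20, the counterpart of bacterial L20, had 55.7, 52.3 and 53.1 CPM with PDGF-BB and 44.7, 44.8 and 43.7 CPM in controls (log2 change 0.27 ± 0.07, adjusted p = 0.0249). None of these 3 genes had a treated library within the range of the controls. Of the structural parts of the large subunit, 1 of 7 central protuberance genes rose, 1 of 5 exit tunnel genes and 0 of the 3 stalk genes (MRPL10, MRPL11 and MRPL12, the flexible arm that binds translation factors). With the block these counts were 4, 3 and 1. Of all genes tested 9.09% rose without the block and 24.3% with it.

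Among the stalk genes, MRPL10 had 20.0, 29.4 and 22.1 CPM with PDGF-BB and 20.5, 29.5 and 23.8 CPM in controls (log2 change −0.05 ± 0.21, adjusted p = 0.942). MRPL12, which in human cells is also known to bind the mitochondrial RNA polymerase, had 38.2, 48.0 and 34.0 CPM with PDGF-BB and 33.0, 42.7 and 30.4 CPM in controls. It was higher in all 3 pairs but overlapped between groups, and it passed only with the replicate block (log2 change 0.18 ± 0.18, adjusted p = 0.617, with the block 0.00526). Of the 61 genes 1 fell with PDGF-BB, and only with the block: MRPL34, the counterpart of bacterial L34, had 10.1, 13.2 and 11.2 CPM with PDGF-BB and 13.4, 14.2 and 12.3 CPM in controls. Its log2 change was −0.21 ± 0.11 (adjusted p = 0.233, with the block 0.0435).

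In the small subunit, 6 of 21 genes rose with PDGF-BB (9.09% of all genes), of which 4 were among the 10 mitochondria-specific proteins. With the block 7 of these 10 and 5 of the 11 bacterial-type ones rose (24.3% of all genes). MRPS26, MRPS27 and MRPS23 are 3 of these 4. MRPS26 had 34.4, 42.2 and 37.1 CPM with PDGF-BB and 25.3, 29.8 and 25.6 CPM in controls (log2 change 0.49 ± 0.10, adjusted p = 0.00865). MRPS27, a pentatricopeptide repeat protein, had 22.4, 26.1 and 23.9 CPM with PDGF-BB and 18.3, 18.2 and 16.3 CPM in controls (log2 change 0.46 ± 0.11, adjusted p = 0.0172). MRPS23, in which variants are known from human mitochondrial disease, had 28.8, 24.7 and 26.9 CPM with PDGF-BB and 20.5, 18.5 and 20.2 CPM in controls (log2 change 0.44 ± 0.09, adjusted p = 0.0100). Treated and control libraries were fully separate for all 3.

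MRPS35 had 20.1, 18.5 and 21.7 CPM with PDGF-BB and 17.1, 14.4 and 15.8 CPM in controls (log2 change 0.35 ± 0.09, adjusted p = 0.0239). Among the bacterial-type small-subunit proteins, MRPS24, the counterpart of bacterial S3, had 22.8, 23.2 and 22.6 CPM with PDGF-BB and 16.6, 19.1 and 16.6 CPM in controls (log2 change 0.39 ± 0.09, adjusted p = 0.0202). MRPS11, the counterpart of bacterial S11, had 33.4, 34.9 and 33.8 CPM with PDGF-BB and 27.5, 30.9 and 26.4 CPM in controls (log2 change 0.27 ± 0.08, adjusted p = 0.0433), the value nearest to the threshold among the 11. MRPS6 and MRPS5 passed only with the replicate block. MRPS6 had 20.4, 27.4 and 19.1 CPM with PDGF-BB and 12.8, 20.1 and 14.2 CPM in controls, higher in all 3 pairs and overlapping (log2 change 0.51 ± 0.25, adjusted p = 0.239, with the block 0.000197). MRPS5 had 21.7, 23.9 and 18.3 CPM with PDGF-BB and 16.1, 19.1 and 13.0 CPM in controls (log2 change 0.41 ± 0.17, adjusted p = 0.167, with the block 0.000838).

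**Figure D3:**
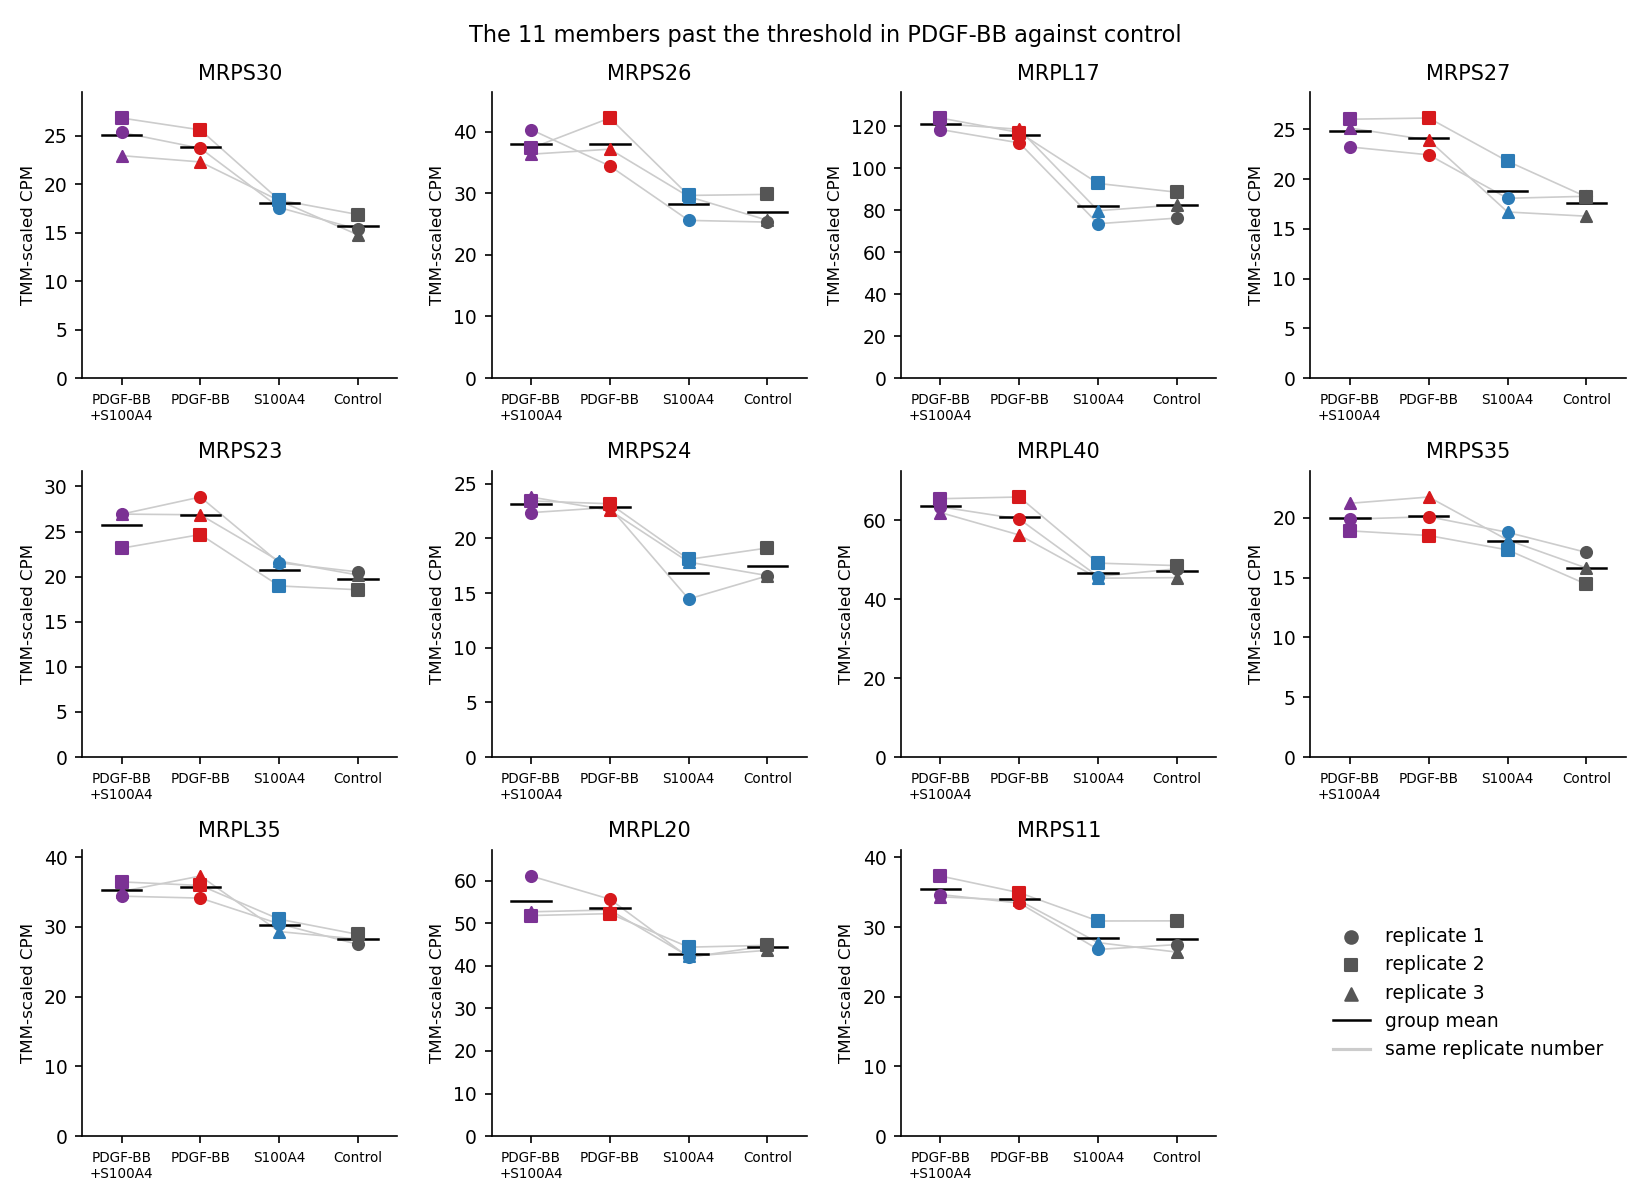
TMM-scaled CPM of the 11 genes that rose with PDGF-BB, in each library by group (marker shape: replicate number; black bar: group mean; grey lines: same replicate number; axes start at 0). In every panel the 3 PDGF-BB libraries lie above the 3 control libraries, and the joint-treatment libraries lie at about the PDGF-BB level.

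Other genes gave smaller or less certain values. MRPS18B, a paralog of MRPS18A, had 38.6, 42.8 and 36.5 CPM with PDGF-BB and 38.8, 39.5 and 39.6 CPM in controls (log2 change 0.00 ± 0.06, adjusted p = 0.998). MRPS18C, another paralog, averaged 1.86 ± 0.317 CPM with PDGF-BB and 1.73 ± 0.462 CPM in controls (SD, n = 3 libraries each; log2 change 0.11 ± 0.24, adjusted p = 0.858). MRPL58, a peptide-release factor built into the large subunit, had 24.2, 26.7 and 23.0 CPM with PDGF-BB and 20.7, 23.9 and 18.1 CPM in controls (log2 change 0.24 ± 0.12, adjusted p = 0.248, with the block 0.00949). By class, the median log2 change was 0.28 over the 10 mitochondria-specific small-subunit genes, 0.20 over the 16 mitochondria-specific large-subunit genes, 0.11 over the 11 bacterial-type small-subunit genes and 0.10 over the 24 bacterial-type large-subunit genes. All 16 mitochondria-specific large-subunit genes were above 0, against 18 of the 24 bacterial-type ones. Differences between these classes were not tested.

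The number of calls depended on replicates 1 and 3. Without replicate 1 of every group 0 of the 61 genes passed (131 of all genes tested were called in either direction). Without replicate 3 MRPS30 was the 1 that passed, and without the distinct replicate 2, 12 passed. Of all genes 0.738% rose without replicate 1, 2.07% without replicate 3 and 11.2% without replicate 2. With the replicate block 22, 27 and 22 passed when replicate 1, 2 or 3 was left out, where 18.4%, 24.4% and 19.0% of all genes rose. Leaving out a single library gave 6 calls without control replicate 3, 7 without PDGF-BB replicate 1 and 8 to 11 without any other. Of all genes 6.01%, 6.29% and 5.57% to 8.97% rose in these fits. MRPS30, MRPS26, MRPL17, MRPS23, MRPL40 and MRPL35 passed in all 12 of these fits.

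Positions limit some of the counts. The 61 genes lie on 17 chromosomes of Sscrofa11.1, and 20 overlap another RefSeq gene, among them MRPS30, MRPL17, MRPS26 and MRPS27 of the 11. Whether the authors' counting used strand is not given in the sources used here, so reads in such overlaps may belong to either gene. MRPS27 overlaps PTCD2, whose own log2 change with PDGF-BB was 0.12 ± 0.13 (adjusted p = 0.655). The other genes that overlap MRPS30, MRPL17 and MRPS26 were not matched to a tested row. MRPS11 and MRPL46 are neighbours on chromosome 1, at 191310547 to 191321951 and 191321990 to 191331320, with 38 bases between them. MRPL46, another central protuberance protein, had 14.7, 17.8 and 14.8 CPM with PDGF-BB and 12.3, 13.7 and 12.2 CPM in controls. Its libraries did not overlap, but it missed the threshold (log2 change 0.31 ± 0.09, adjusted p = 0.0548, with the block 0.00394).

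With S100A4 alone no gene of the group passed the test. By edgeR 0 of the 61 genes passed against control in either direction, 2 had an unadjusted p under 0.05, and DESeq2 called 0; over all genes 0.554% rose and 0.00804% fell. The median log2 change was −0.01, against −0.02 over all genes, with 30 of 61 above 0, and single genes lay between −0.35 (MRPL28) and 0.31 (MRPL57). The median SE of a gene was 0.11. With the replicate block 1 gene rose and 1 fell, where 6.46% of all genes rose and 4.28% fell; none of the 61 passed with the block once any replicate number was left out. The gene that rose was MRPS30, with 17.6, 18.4 and 18.3 CPM with S100A4 against 15.3, 16.9 and 14.8 CPM in controls (log2 change 0.21 ± 0.08, adjusted p = 0.677, with the block 0.0499). The gene that fell was MRPL12, a stalk protein, with 29.5, 36.9 and 26.8 CPM with S100A4 against 33.0, 42.7 and 30.4 CPM in controls (log2 change −0.19 ± 0.18, adjusted p = 1.00, with the block 0.0244). The libraries of 4 genes lay wholly above the controls and those of 2 wholly below (5.68% and 4.04% of all genes). MRPS35, of the 4, was also higher in all 3 pairs without overlap, at 18.8, 17.3 and 18.1 CPM with S100A4 against 17.1, 14.4 and 15.8 CPM in controls, and did not pass (log2 change 0.20 ± 0.09, adjusted p = 0.810, with the block 0.0761).

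With the joint treatment, against control, 15 of the 61 genes rose, by 1.14-fold to 1.60-fold, and 0 fell, where 13.2% of all genes rose and 8.75% fell. The median log2 change was 0.19, against −0.03 over all genes, and 44 genes were higher in all 3 pairs (33.7% of all genes), 24 of them without overlap (19.8% of all genes). With the replicate block 37 rose and 1 fell, where 27.5% of all genes rose and 28.6% fell. Of all genes called 60.1% were higher, against 46.1% with upper-quartile scaling, where 10 of the 61 rose and 1, MRPL13, fell (adjusted p = 0.0377). In a fit of only these 2 groups 8 rose (10.2% of all genes). Without replicate 1 of every group 0 passed (20 with the block), without replicate 3, 2 passed, and without replicate 2, 18 passed. Of all genes 2.89% rose without replicate 1 (21.8% with the block), 5.37% without replicate 3 and 16.03% without replicate 2. Leaving out control replicate 1, joint-treatment replicate 1 or joint-treatment replicate 3 gave 9 calls each, where 9.01%, 9.80% and 10.4% of all genes rose.

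MRPS30 reached 25.3, 26.8 and 22.9 CPM with the joint treatment, against 15.3, 16.9 and 14.8 CPM in controls (log2 change 0.68 ± 0.08, adjusted p = 0.000389), again the largest called change. MRPL17 reached 119, 124 and 121 CPM, against 76.3, 88.6 and 82.6 CPM in controls (log2 change 0.56 ± 0.09, adjusted p = 0.00157). For both, every treated library was above every control. MRPS18A, the large-subunit member of the S18 paralogs, had 22.0, 16.7 and 21.8 CPM with the joint treatment and 14.3, 13.8 and 17.1 CPM in controls. It was higher in all 3 pairs, with replicate 2 of the treatment below the highest control (log2 change 0.42 ± 0.12, adjusted p = 0.0347). MRPL4, the counterpart of bacterial L4, had 45.2, 39.8 and 44.8 CPM with the joint treatment and 34.5, 37.4 and 37.9 CPM in controls (log2 change 0.24 ± 0.06, adjusted p = 0.0217). MRPL46 had 16.6, 15.6 and 15.6 CPM with the joint treatment and 12.3, 13.7 and 12.2 CPM in controls (log2 change 0.32 ± 0.09, adjusted p = 0.0338), so that it passed together with its neighbour MRPS11 (log2 change 0.33 ± 0.08, adjusted p = 0.0134). The smallest called change was that of MRPL15, with 60.0, 58.3 and 62.2 CPM against 50.7, 52.6 and 54.8 CPM in controls (log2 change 0.19 ± 0.06, adjusted p = 0.0429).

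MRPS6 had the largest joint change of all, with 20.9, 30.8 and 24.1 CPM against 12.8, 20.1 and 14.2 CPM in controls and no overlap, and passed only with the block (log2 change 0.69 ± 0.25, adjusted p = 0.0837, with the block 9.76e-06). MRPS6 overlaps the inositol transporter gene SLC5A3, so its count is uncertain. MRPL11, a stalk gene, had 29.5, 31.7 and 28.3 CPM with the joint treatment and 25.8, 26.3 and 26.0 CPM in controls (log2 change 0.20 ± 0.08, adjusted p = 0.107, with the block 0.0123). The 1 gene that fell with the block was MRPL13, the counterpart of bacterial L13, with 13.6, 12.4 and 12.1 CPM against 16.5, 14.4 and 15.1 CPM in controls. Its libraries did not overlap (log2 change −0.28 ± 0.10, adjusted p = 0.0867, with the block 0.00962).

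Between the joint treatment and PDGF-BB alone no gene of the 61 passed. Here edgeR called 0 in either direction with and without the block, 0 had an unadjusted p under 0.05, and DESeq2 called 0; of all genes 0.273% rose and 0% fell, and with the block 5.11% rose and 2.03% fell. The median log2 change was 0.04, against 0.00 over all genes. The interaction, the S100A4 effect with PDGF-BB less the S100A4 effect without it, was past the threshold for 0 of the 61 genes by edgeR (0 with the block, where 0.0161% of all genes were higher and 0.0964% lower, 0 at an unadjusted p under 0.05 and 0 by DESeq2). Interaction values ran from −0.30 (MRPL57) to 0.43 (MRPL28) with a median SE of 0.15. S100A4 alone against PDGF-BB alone, which shares libraries with these comparisons, had 9 genes lower and 0 higher (6.44% of all genes lower and 4.67% higher), with a median of −0.19. With the block 28 were lower and 0 higher, where 22.5% of all genes were lower and 20.6% higher. None was lower without replicate 1, without replicate 3, or in a fit of only these 2 groups; 12 were without replicate 2, 3 without S100A4 replicate 1 and 4 without S100A4 replicate 3. By size the 5 largest were MRPL17 (−0.50 ± 0.09), MRPS24 (−0.44 ± 0.09), MRPS26 (−0.43 ± 0.10), MRPS30 (−0.40 ± 0.08) and MRPL46 (−0.39 ± 0.09).

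The PDGF-BB step can be read a second time in other libraries, as the joint treatment against S100A4 alone. There 12 of the 61 genes rose and 0 fell, where 9.45% of all genes rose and 5.51% fell, and the median log2 change was 0.21 (−0.01 over all genes). In all 3 pairs 42 were higher (33.6% of all genes), 23 of them without overlap (17.0% of all genes). With the block 36 rose and 0 fell, where 24.9% of all genes rose and 22.9% fell. Of all genes called 63.2% were higher, against 49.9% with upper-quartile scaling, where 9 of the 61 rose (7.61% of all genes). In a fit of only these 2 groups 5 rose (5.51% of all genes), and in one of only PDGF-BB and control 9 rose (5.88% of all genes). Of the 11 genes that rose without S100A4, 10 rose here too, which is 90.9% of the 11 and 83.3% of the 12. The like share over all genes that rose was not computed. Only MRPS35 passed in the absence of S100A4 alone (0.15 ± 0.09 here, adjusted p = 0.335), and only MRPL4 and MRPL46 passed in its presence alone, and none of the 3 had an interaction past the threshold. The 2 steps had the same sign for 54 of 61 genes (83.1% of all genes), and 49 of 61 were above 0 in both (39.6% of all genes). Over the 61 genes the log2 changes correlated at Pearson r = 0.72 (0.84 over all genes), as a description across genes, which are not independent. The comparisons share no library, but their replicate numbers are the same. Both tests also take the spread from 1 fit of all 12 libraries.

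**Figure D4:**
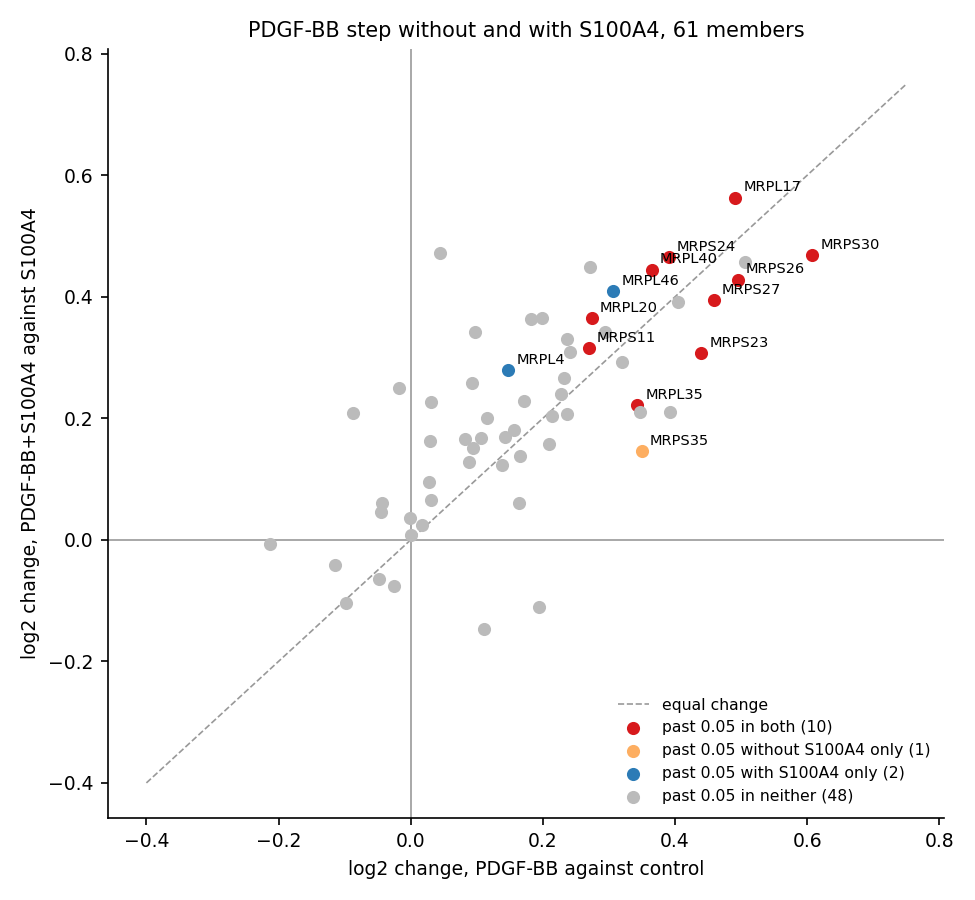
Log2 change of each of the 61 genes for PDGF-BB without S100A4 (PDGF-BB against control, horizontal) and with it (PDGF-BB+S100A4 against S100A4, vertical), colored by the comparisons in which the adjusted p was under 0.05; the dashed line marks equal change. The 10 genes past the threshold in both lie at the upper right near the line, and 49 of 61 points lie in the upper right quadrant.

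The calls of the second step depended on single libraries too. Without replicate 1 or without replicate 3 of every group 0 of the 61 genes passed (24 and 24 with the block), and without replicate 2, 15 passed. Of all genes 0.0561% rose without replicate 1, 1.55% without replicate 3 (17.3% and 18.6% with the block) and 12.1% without replicate 2. Leaving out joint-treatment replicate 1 or S100A4 replicate 1 gave 5 calls each, and leaving out S100A4 replicate 3 gave 7. Of all genes 6.02%, 5.13% and 6.01% rose in these fits. MRPL17 was the largest change, with 119, 124 and 121 CPM in the joint treatment against 73.6, 92.8 and 79.8 CPM with S100A4 (log2 change 0.56 ± 0.09, adjusted p = 0.00243). MRPS24, with 22.4, 23.4 and 23.8 CPM against 14.5, 18.1 and 17.8 CPM with S100A4, followed MRPS30 (log2 change 0.47 ± 0.09, adjusted p = 0.00884). The joint-treatment libraries of both genes lay above all S100A4 libraries.

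Replicate number left a mark on the 61 genes, and same-numbered libraries deviated together over all genes tested too. Across the 4 groups replicate 2 lay above the mean of replicates 1 and 3 by 0.53 for MRPS6, 0.46 for MRPL10, 0.44 for MRPS12 and 0.39 for MRPL12 on the log2 scale, in every group, and below it by −0.40 for MRPL22, in every group. For MRPS12, the counterpart of bacterial S12 in the decoding centre, the levels were 27.5, 35.8 and 26.1 CPM with PDGF-BB and 22.3, 31.3 and 22.7 CPM in controls, so that replicate 2 of the control was above both other treated libraries. For MRPL22, a protein of the exit tunnel, they were 31.9, 22.8 and 29.4 CPM with PDGF-BB and 26.3, 19.5 and 25.5 CPM in controls. Both passed only with the block (adjusted p = 0.545 and 0.473 without it, 0.00229 and 0.00468 with it). Within a group 37 to 44 of the 61 genes were higher in replicate 2 than in the mean of the other replicates. The like share over all genes was not computed. By group, the median log2 difference was 0.0450 to 0.110 over the 61 genes and 0.00338 to 0.00765 over all genes. The part of the replicate 2 marker levels in these differences, lower for contractile and higher for fibroblast and proliferation markers, was not tested.

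Of the mitoribosomal proteins with other symbols, 5 were tested, and 1 rose with PDGF-BB (9.09% of all genes rose). This was PTCD3, a pentatricopeptide repeat protein of the small subunit, at 60.5, 71.7 and 61.1 CPM against 44.2, 51.0 and 37.5 CPM in controls (log2 change 0.54 ± 0.14, adjusted p = 0.0274). DAP3, a small-subunit GTP-binding protein also known from cell death, was highest with S100A4 alone, at 66.5, 86.6 and 59.8 CPM against 50.8, 60.1 and 42.8 CPM in controls. It was higher than the same-numbered control in each pair and passed only with the block (log2 change 0.47 ± 0.16, adjusted p = 0.497, with the block 0.000408). With the joint treatment DAP3 had 49.7, 58.9 and 52.4 CPM, which against S100A4 alone was a log2 change of −0.40 ± 0.16 (adjusted p = 0.135, with the block 0.000288). Its interaction did not pass (−0.31 ± 0.23, adjusted p = 1.00, with the block 0.342).

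The factors that build and serve the mitoribosome were set beside these, in lists drawn up with results of these data known. Of all genes tested 9.09% rose and 5.62% fell with PDGF-BB, and with the block 24.3% rose and 24.5% fell. Of 23 assembly factors 5 rose and 0 fell with PDGF-BB (median log2 change 0.22, 12 higher with the block). MRM3, which methylates the large mitoribosomal RNA, had 21.2, 22.9 and 23.2 CPM with PDGF-BB and 10.1, 11.7 and 11.7 CPM in controls (log2 change 1.01 ± 0.09, adjusted p = 0.000126). MRM1, another methyltransferase of that RNA, rose by 0.49 ± 0.11 (adjusted p = 0.0127), and RCC1L, an assembly factor, by 0.43 ± 0.06 (adjusted p = 0.00146). C1QBP, an RNA-binding matrix protein, rose by 0.89 ± 0.23 (adjusted p = 0.0256). Of 16 translation factors 4 rose and 0 fell (median 0.13), namely the elongation factors TUFM (0.33 ± 0.08) and GFM1 (0.25 ± 0.07), the messenger-binding protein LRPPRC (0.32 ± 0.08) and the release factor MTRF1L (0.43 ± 0.12). Of 17 mitochondrial aminoacyl-tRNA synthetases 2 rose and 0 fell (median −0.02), while with the block 4 rose and 2, EARS2 (−0.24 ± 0.09, adjusted p with the block = 0.0213) and IARS2 (−0.12 ± 0.06, adjusted p with the block = 0.0183), fell. The synthetases that rose were 11.8% of their list, and 23.5% with the block, near the shares of all genes. Without the block MARS2 rose by 1.10 ± 0.16 (adjusted p = 0.00149) and YARS2 by 0.41 ± 0.12 (adjusted p = 0.0409). EARS2 also fell with the joint treatment without the block (−0.37 ± 0.10, adjusted p = 0.0201).

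Regulators and import genes had higher medians than the mitoribosomal proteins themselves. Of 18 genes of mitochondrial transcription and biogenesis 8 rose with PDGF-BB and 0 fell (median 0.30), where 9.09% of all genes rose and 5.62% fell. MYC, a growth regulator whose known targets include ribosomal genes, had 136, 121 and 125 CPM with PDGF-BB and 58.0, 53.4 and 49.5 CPM in controls (log2 change 1.25 ± 0.13, adjusted p = 0.000265). PPRC1, a growth-responsive coactivator of the PGC-1 family, had 248, 225 and 252 CPM with PDGF-BB and 137, 137 and 148 CPM in controls (log2 change 0.78 ± 0.08, adjusted p = 0.000281). TFB2M, a transcription factor of the mitochondrial genome, rose by 0.79 ± 0.12 (adjusted p = 0.00195). GABPB1, a subunit of the nuclear respiratory factor GABP, rose by 0.58 ± 0.10 (adjusted p = 0.00436), and TFAM, which packages mitochondrial DNA, by 0.35 ± 0.09 (adjusted p = 0.0275). The DNA-binding factors NRF1 (0.14 ± 0.16, adjusted p = 0.680) and GABPA (0.08 ± 0.10, adjusted p = 0.695) did not pass. Of 24 import and chaperone genes 10 rose and 0 fell (median 0.33), with the outer-membrane receptors TOMM20 (0.74 ± 0.06) and TOMM70 (0.54 ± 0.06), the matrix chaperone HSPA9 (0.42 ± 0.05) and the import motor protein TIMM44 (0.39 ± 0.05) among them.

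Other protein complexes set the scale of these values. With PDGF-BB 9.09% of all genes rose, and 24.3% with the block. Of 26 subunits of respiratory complex I, which takes core subunits made by the mitoribosome, 0 passed with PDGF-BB by edgeR (1 at an unadjusted p under 0.05, 3 with the block), and the median log2 change was 0.02. Of 44 genes with cytosolic ribosomal protein symbols 1 rose, RPL7L1 (0.49 ± 0.08, adjusted p = 0.00296), which is a ribosome biogenesis factor despite its symbol. Their median was 0.13, and 35 of 44 rose with the block. The 28 ribosome biogenesis genes, which act in the nucleolus, had a median of 0.72 and 24 rose, PPAN and RRS1 by 1.25 ± 0.10 and 1.31 ± 0.11. Differences between the lists were not tested. With the joint treatment, where 13.2% of all genes rose and 8.75% fell, 7 assembly factors, 3 translation factors, 10 import genes, 3 cytosolic ribosomal protein genes and 26 ribosome biogenesis genes rose and none in these lists fell. Of the synthetases 2 rose and 1 fell, of the transcription and biogenesis genes 9 rose and 1 fell, and of the complex I subunits 0 passed by edgeR (0 at an unadjusted p under 0.05). The biogenesis gene that fell was MTERF1, a mitochondrial transcription termination factor (−0.66 ± 0.20, adjusted p = 0.0423). With the block 3 synthetases and 3 transcription and biogenesis genes fell, and 1 assembly factor and 1 translation factor fell, where 28.6% of all genes fell. With S100A4 alone edgeR called 0 genes in each of these lists, with 5 ribosome biogenesis, 4 transcription and biogenesis, 2 import, 1 assembly and 1 synthetase gene at an unadjusted p under 0.05 and 0 in the others. With the block 7 of 28 ribosome biogenesis genes and 3 of 18 transcription and biogenesis genes rose, against 6.46% of all genes. Also with the block, 1 synthetase and 1 import gene rose, and among the assembly factors 1 rose and 1 fell (4.28% of all genes fell).

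Markers of other cells were summed beside these values. Of all genes tested 9.09% rose and 5.62% fell with PDGF-BB, and with the block 24.3% rose and 24.5% fell. Endothelial markers gave 120 to 201 CPM with PDGF-BB and 55.2 to 127 CPM in controls (1 of 4 tested, ERG, rose, and KDR was at 0 to 0.189 CPM in all libraries). Over all libraries ERG had 35.7 to 142 CPM, PECAM1 3.13 to 24.0, CDH5 15.3 to 34.0 and TEK 0 to 1.42 CPM. Contractile markers gave 9832 to 23049 CPM with PDGF-BB and 11592 to 25662 CPM in controls (1 of 8 fell, and with the block 5 fell and 1 rose). Fibroblast markers gave 284 to 942 CPM with PDGF-BB and 267 to 1091 CPM in controls, with replicate 2 highest in both groups. Proliferation markers gave 72.8 to 424 CPM with PDGF-BB and 103 to 434 CPM in controls, and 0 of these 11 genes passed by edgeR (1 at an unadjusted p under 0.05). With the block 2 of 6 fibroblast markers rose and 2 fell, and 2 of 5 proliferation markers fell. Their part in the change of the mitoribosomal genes was not tested.

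**Figure D5:**
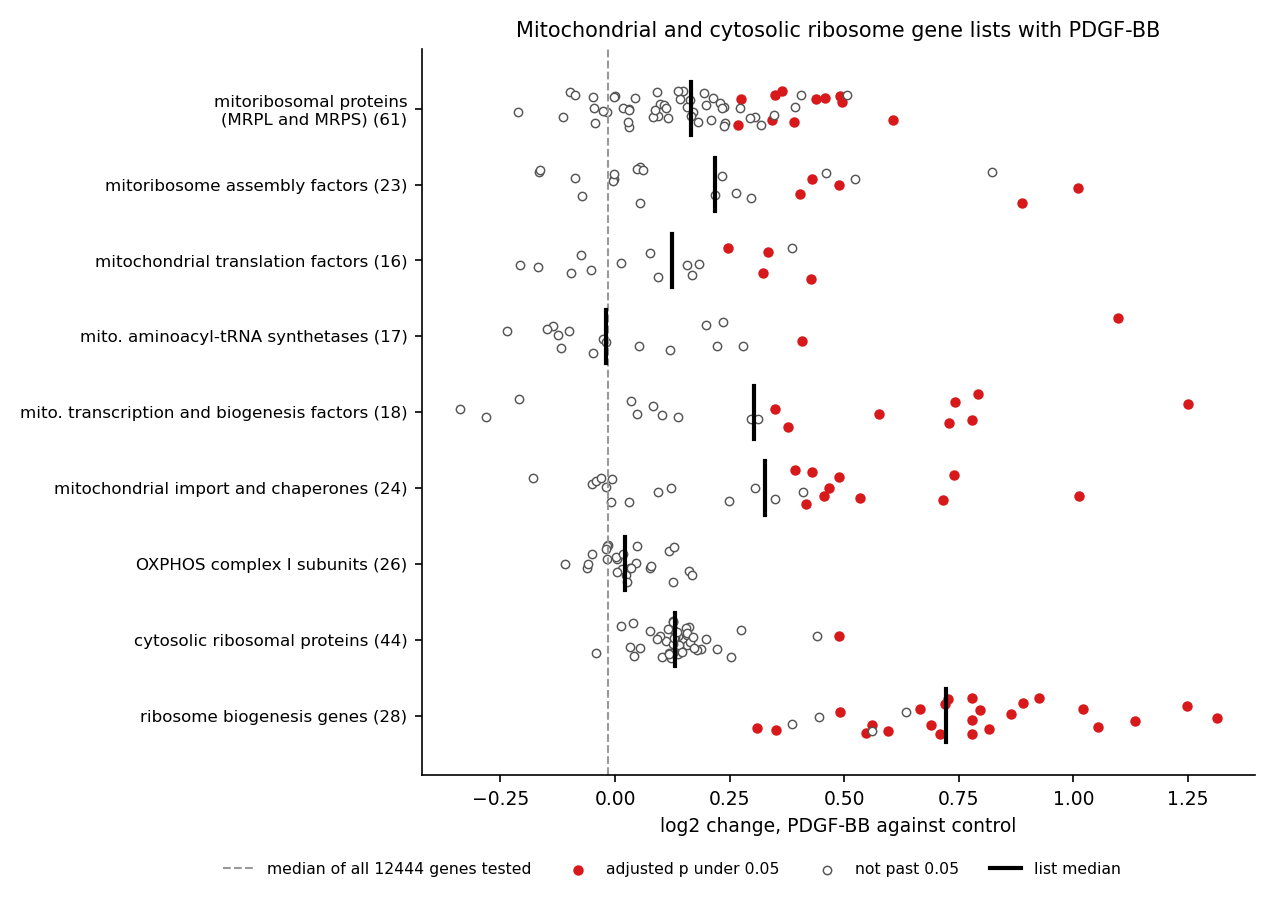
Log2 change with PDGF-BB against control of each tested gene (points, red where the adjusted p is under 0.05) in 9 gene lists, with the number tested in brackets, black bars at list medians and a dashed line at the median of all 12444 genes. The mitoribosomal protein genes lie between −0.21 and 0.61, the ribosome biogenesis genes all above 0.31, and the complex I subunits around 0.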

How the data were processed

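RNA was measured by sequencing in 12 libraries, 4 groups of 3. The authors deposited raw counts per gene in 1 table. CASAVA 1.8.2, STAR 2.4, featureCounts 1.4.6 and the build Sscrofa11.1 are named, with no role given, per the submitters' processing notes; strand use in counting is not given in the sources used here. Symbols were matched to 14572 of 21153 gene IDs. Of 65 pig symbols beginning with MRPL or MRPS and a digit, 63 were in the table; MRPS2 and MRPS28 were not analysed here. Positions are from RefSeq for the same build, matched by symbol.

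From the deposited counts, edgeR 4.0.16 (R 4.3.3) fitted 4 group means to 12444 genes kept by filterByExpr, with TMM scaling, quasi-likelihood tests and Benjamini-Hochberg adjustment over all of them. SEs were derived from the log2 change and the F value. A CPM corresponds to 21.5 counts in the smallest library. Replicates differed by a chi-square of 22.0 to 159 per gene, so no library was a repeat of another. The script was tested on simulated data with less spread than these libraries have in the fit of groups alone. For that fit the simulation held no replicate effect, so it does not show how the fit behaves on data like these.

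No label ties a replicate number to an animal. The deviations of same-numbered libraries from their group means correlated at 0.746 to 0.908 in 18 pairs, and those of different numbers at −0.676 to 0.136 in 36 pairs, so the numbers were taken to pair the libraries from the data. Adding the block took the common biological coefficient of variation to 5.14%, against 27.2% in the fit of groups alone.

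The 61 members and the lists were chosen with earlier results of these data known. Named members were the 10 largest called changes against control in each direction, the 5 largest in other comparisons (from the block fit where fewer than 3 passed), up to 4 genes per list and a few fixed genes. MRPL15, MRPL13, MRPL34, MRPL28, MRPL57 and neighbouring genes were chosen after their values were seen where that rule left them out. Alternatives were other scalings, DESeq2 1.42.0, other filters, the replicate block, fits of the compared groups alone and leaving out libraries.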

Additional observations from a re-analysis of the deposited data

How the results depend on the processing

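No value changed direction in a called result. With upper-quartile scaling the median log2 change of the 61 genes was 0.114 for PDGF-BB against control, 0.119 for the joint treatment against control, 0.158 for the joint treatment against S100A4, 0.0185 for the joint treatment against PDGF-BB, −0.0259 for S100A4 against control and −0.156 for S100A4 against PDGF-BB. With the replicate block and upper-quartile scaling these medians were 0.118, 0.119, 0.165, 0.0167, −0.0255 and −0.157. For PDGF-BB against control it was 0.157 with RLE scaling, 0.157 with DESeq2 and 0.149 with a stricter filter. In that comparison the median over all genes was −0.0163 with TMM and −0.0673 with upper-quartile scaling. There the median of the 61 genes less that of all genes was 0.182 with TMM, RLE and upper-quartile scaling. It was also 0.182 with DESeq2, and 0.166 with the stricter filter. With the replicate block the genes called, in either direction, were 32 for PDGF-BB, 2 for S100A4 and 38 for the joint treatment against control, 36 for the joint treatment against S100A4 and 28 for S100A4 against PDGF-BB; with the block and upper-quartile scaling they were 24, 1, 27, 25 and 27. In fits of the compared groups alone 8 were called for the joint treatment against control, 5 for the joint treatment against S100A4 and 0 for S100A4 against PDGF-BB. In the first 2 of these fits 10.2% and 5.51% of all genes rose. The cause of the shifts in the number of calls was not tested.

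Without a single library, the genes called ranged from 6 to 11 for PDGF-BB against control, from 9 to 16 for the joint treatment against control, from 5 to 13 for the joint treatment against S100A4 and from 3 to 10 for S100A4 against PDGF-BB. In the first 3 of these comparisons 5.57% to 8.97%, 9.01% to 13.1% and 5.13% to 9.17% of all genes rose. Without a single library, the median log2 change ranged from 0.132 to 0.187 for PDGF-BB against control, from −0.0349 to 0.0263 for S100A4 against control, from 0.179 to 0.235 for the joint treatment against control, from 0.0126 to 0.0829 for the joint treatment against PDGF-BB, from 0.179 to 0.240 for the joint treatment against S100A4, from −0.194 to −0.144 for S100A4 against PDGF-BB and from 0.00367 to 0.0855 for the interaction. Without 1 replicate number from every group, the genes called ranged from 0 to 12 for PDGF-BB against control, from 0 to 18 for the joint treatment against control, from 0 to 15 for the joint treatment against S100A4 and from 0 to 12 for S100A4 against PDGF-BB. Without 1 replicate number from every group, the median log2 change ranged from 0.164 to 0.192 for PDGF-BB against control, from −0.00831 to 0.0150 for S100A4 against control, from 0.168 to 0.223 for the joint treatment against control, from 0.0144 to 0.0535 for the joint treatment against PDGF-BB, from 0.202 to 0.217 for the joint treatment against S100A4, from −0.192 to −0.158 for S100A4 against PDGF-BB and from 0.00703 to 0.0417 for the interaction. Without 1 replicate number in the fit with the replicate block, the genes called ranged from 22 to 27 for PDGF-BB against control, from 20 to 32 for the joint treatment against control, from 24 to 35 for the joint treatment against S100A4 and from 19 to 26 for S100A4 against PDGF-BB. In the first 3 of these comparisons 18.4% to 24.4%, 21.8% to 27.4% and 17.3% to 24.9% of all genes rose. Without 1 replicate number in the fit with the replicate block, the median log2 change ranged from 0.163 to 0.189 for PDGF-BB against control, from −0.00663 to 0.0154 for S100A4 against control, from 0.167 to 0.223 for the joint treatment against control, from 0.0133 to 0.0516 for the joint treatment against PDGF-BB, from 0.202 to 0.219 for the joint treatment against S100A4, from −0.195 to −0.164 for S100A4 against PDGF-BB and from 0.0152 to 0.0436 for the interaction. With the block, leaving out replicate 1 gave a median of 0.177 for PDGF-BB against control, and leaving out replicate 3 gave 0.00711 for S100A4 against control and 21 genes called for S100A4 against PDGF-BB. No gene of the 61 was called in any of these fits for S100A4 against control, the joint treatment against PDGF-BB or the interaction.

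Over the 148 results of single named genes, the block made 52 pass that did not pass without it, and 0 lost the threshold under it. Fits of the compared groups alone took 15 of the 148 below the threshold. Counting each of the 148 results once in each of the 15 fits that left out a library or a replicate number without the block, the threshold was lost 156 times and gained 18 times. Genes at low counts, such as MRPL24 and MRPS7 (11 to 38 counts a library), set the limit of depth. The planned comparison of promoter motifs was not run, since no promoter sequence was used here.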

Other observations

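Genes that lie beside or across the mitoribosomal protein genes gave values of their own with PDGF-BB against control. KLC4, which overlaps MRPL2 in RefSeq, fell by 0.67 ± 0.10 on the log2 scale (edgeR, adjusted p = 0.00144), while MRPL2 had a log2 change of 0.03. NR2C2, which overlaps MRPS25, fell by 0.57 ± 0.16 (edgeR, adjusted p = 0.0388), while MRPS25 had 0.00. TCP1, a cytosolic chaperonin gene that starts or ends 102 bases from MRPL18, rose by 0.35 ± 0.08 (edgeR, adjusted p = 0.0169), while MRPL18 had −0.02. IMMT, a gene of the inner-membrane organizing complex 64 bases from MRPL35, had −0.02 ± 0.09 (edgeR, adjusted p = 0.945), while MRPL35 rose by 0.34. These pairs were chosen after their values were seen, and the differences within a pair were not tested.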
